A study of Homo sapiens with 12 samples.

Results

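The miR-517 family of the chromosome 19 miRNA cluster (C19MC) was described across 2 human embryonal carcinoma cell lines with and without knock-down of SOX2, the transcription factor that helps hold such cells undifferentiated. Its members were taken by name as every assay of the authors' table named miR-517, with any letter or arm. These were hsa-miR-517a, hsa-miR-517b and hsa-miR-517c, 3 of 501 assays, and all 3 lay on card A of the TaqMan array cards, which held 290 of the assays. The cluster as a whole had 38 assays in the table, leaving 35 besides the family.

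2102Ep and NTera-2 are established lines of embryonal carcinoma, the malignant counterpart of the undifferentiated embryo cell. The 4 groups of 3 samples each, labelled as biological replicates, were 2102Ep NC and NTera-2 NC, transfected with the Silencer Select Negative Control #1 siRNA, and 2102Ep siSOX2 and NTera-2 siSOX2, transfected with the siRNA against SOX2. In 2102Ep cells (passages 35 to 50) the siRNA was given at 15 nM with Lipofectamine 2000, and in NTera-2 cells (passages 40 to 50) at 30 nM with Lipofectamine RNAiMAX, in each case for 6 h followed by 72 h in growth medium. Line, siRNA dose and transfection reagent therefore cannot be told apart in any comparison between the lines. SOX2 itself was not analysed here, since the cards measure only small RNAs. By the paper's qRT-PCR more SOX2 mRNA was left after knock-down in NTera-2 than in 2102Ep cells. Its Western blot detected SOX2 protein in neither line after knock-down. The extent of the mRNA loss thus also differed with the line.

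C19MC is a large cluster of miRNA genes found only in primates. It is imprinted and transcribed from the paternal chromosome, and is best known from the placenta, where trophoblast cells make its miRNAs in abundance and release them into the maternal blood. It is also active in undifferentiated embryonic stem cells and in some embryonal tumours. A miRNA guides an Argonaute protein to messenger RNAs chiefly by pairing through its seed, the bases 2 to 8 from the 5′ end, so miRNAs that share a seed are grouped as a family.

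The mature sequences are shown because they set how far the 3 assays could tell the members apart. They were taken from RefSeq (GRCh38.p14) by miRNA name, which matched all 3 members, and the seed is in capitals.
miR-517a-3p: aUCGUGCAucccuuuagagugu
miR-517b-3p: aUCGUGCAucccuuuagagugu
miR-517c-3p: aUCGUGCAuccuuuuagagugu
The seed UCGUGCA was common to all 3 and occurred in no other of the 2545 mature entries of the RefSeq table. MiR-517a-3p and miR-517b-3p had 0 differences over their 22 bases. MiR-517c-3p differed from both by the single substitution C12U, counted from 1 at the 5′ end, which lies outside the seed. The opposite arm of the hairpin, for which the authors' table had no assay of the family, is the same sequence in all 3 genes.
miR-517-5p: cCUCUAGAuggaagcacugucu
The sources used here name the assays but do not give the bases each one detects, so whether the assays for miR-517a and miR-517b read the same mature molecule was not tested.

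The 3 genes lie on the plus strand of chromosome 19 within the 95.752 kb from the first to the last of the 46 C19MC genes in RefSeq (GRCh38.p14). MIR517A (chr19:53712268-53712354) is the 24th gene from the 5′ end of the cluster, between MIR524 and MIR519D. MIR517B (chr19:53721076-53721142) is the 28th, between MIR520D and MIR520G, and begins 8.808 kb further on. MIR517C (chr19:53741313-53741407) is the 37th, between MIR518A2 and MIR520H, and begins 20.237 kb after MIR517B. The mature arms read above lie at chr19:53712321-53712342 for miR-517a-3p, chr19:53721118-53721139 for miR-517b-3p and chr19:53741369-53741390 for miR-517c-3p.

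Levels are given as Ct and dCt. A Ct is the PCR cycle at which an assay's fluorescence passes a set level, so more RNA gives a lower Ct, and 1 cycle corresponds to about 1 unit on the log2 scale. On card A the dCt is the Ct minus the average for 2 reference RNAs, miR-16 and the nuclear U6, in the same sample. On card B, whose 211 assays enter the shares, medians and ranks over all assays given below, the reference was another one, in NTera-2 cells the mean of U6, RNU48 and miR-16-1*, and in 2102Ep cells one that was not traced. Between 420 and 451 of the 501 assays were measured per sample (a number as dCt and a raw Ct below 40), and all 3 members were measured in all 12 samples. All 8 markers of undifferentiated stem and embryonal carcinoma cells were measured in all samples. Their raw Ct lay between 16.1 and 21.9 in 2102Ep and between 13.8 and 27.0 in NTera-2 cells. Being measured does not by itself set the cell type apart. Of 7 markers of other cell types in the authors' table, 5 were also measured in all 3 samples of either 2102Ep group. In NTera-2 cells these were 4 in NC and 5 in siSOX2 samples. In total RNA from whole cultures, fewer cells that make a miRNA and less of it per cell cannot be told apart.

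The family was abundant in undifferentiated 2102Ep cells and far lower in NTera-2 cells. MiR-517a had dCt values of 2.15, 2.27 and 1.94 in the 3 samples of 2102Ep NC and of 3.58, 3.43 and 3.50 in 2102Ep siSOX2. In NTera-2 NC they were 9.28, 10.13 and 9.90, and in NTera-2 siSOX2 10.19, 9.75 and 10.25. The arms did not overlap in 2102Ep cells, where all siSOX2 samples were lower in RNA, and did overlap in NTera-2 cells.

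MiR-517b had the highest dCt of the 3 assays in every group. Its dCt values were 4.33, 3.59 and 3.94 in 2102Ep NC and 5.13, 4.72 and 4.88 in 2102Ep siSOX2. They were 12.79, 14.39 and 13.35 in NTera-2 NC and 14.84, 14.47 and 13.59 in NTera-2 siSOX2. As with miR-517a, the arms were apart in 2102Ep cells only. Its spread was also the widest, with an SD of 0.810 in NTera-2 NC and 0.642 in NTera-2 siSOX2 samples, against 0.442 and 0.273 for miR-517a.

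MiR-517c gave dCt values of 2.27, 2.45 and 2.19 in 2102Ep NC and of 3.63, 3.37 and 3.49 in 2102Ep siSOX2. In NTera-2 cells they were 11.94, 12.04 and 11.78 in NC and 12.45, 12.37 and 12.53 in siSOX2 samples. Its SDs lay between 0.0777 and 0.136, the lowest of the 3 in each group except 2102Ep siSOX2, where miR-517a had 0.0725. It was the only one of the 3 whose arms were apart in both lines. The plot of dCt by group shows these values for the 3 assays side by side.

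**Figure D1:**
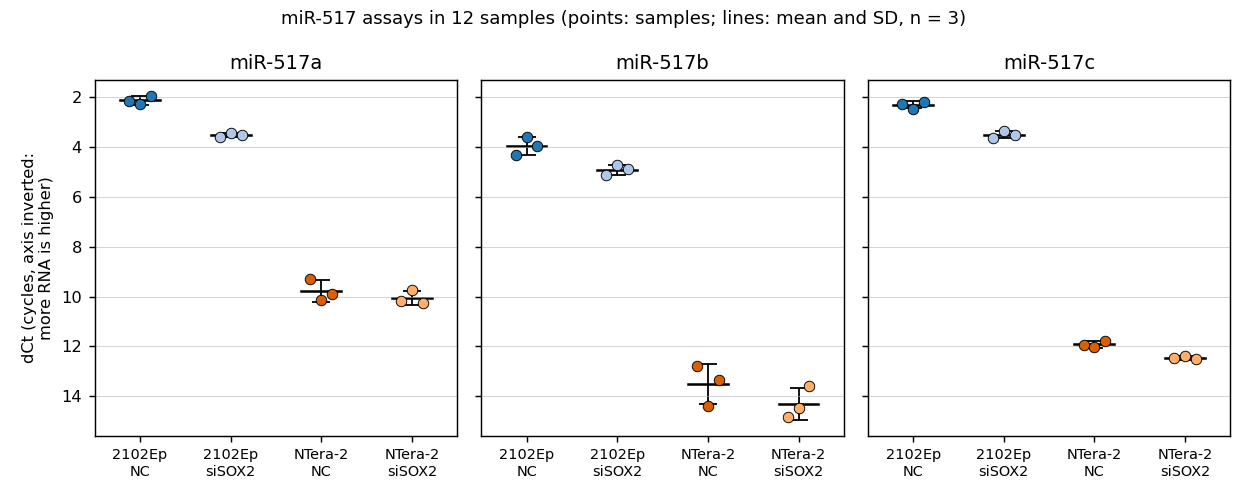
Levels of miR-517a, miR-517b and miR-517c as dCt in cycles, with the axis inverted so that more RNA is higher, in 4 groups of 3 samples (points are samples, long lines means, bars SD). All 2102Ep samples lie between 1.94 and 5.13 and all NTera-2 samples between 9.28 and 14.84, and within 2102Ep the siSOX2 samples lie below the NC samples in each panel.

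The first question of the design was how the family responded to loss of SOX2 in 2102Ep cells. MiR-517a and miR-517c fell, to 38.3% and 43.6% of their control level, and miR-517b had a mean of 51.6% without passing the test. The mean dCt of miR-517a went from 2.12 ± 0.168 (SD, n = 3) to 3.51 ± 0.0725 and that of miR-517c from 2.30 ± 0.136 to 3.50 ± 0.133. As a log2 fold change (the NC mean less the siSOX2 mean, so that a fall is negative) this was -1.38 for miR-517a (95% confidence interval -1.94 to -0.83, adjusted p = 0.0056, limma with Benjamini-Hochberg adjustment over 431 assays) and -1.20 for miR-517c (-1.58 to -0.81, adjusted p = 0.0024, limma). MiR-517b had a mean dCt of 3.95 ± 0.370 in NC and 4.91 ± 0.205 in siSOX2 samples, a log2 fold change of -0.95 with an interval of -1.92 to 0.01 (adjusted p = 0.204, limma). That interval includes the values of both other members, so a weaker response of miR-517b was not shown.

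Of the 3 members 2 were called lower, where 9.51% of all 431 assays tested were, and all 3 lay below 0, as did 50.3% of all assays. All 3 had arms that did not overlap, with siSOX2 lower, which held for 18.1% of all assays. A two-sided exact permutation test on 3 against 3 samples has a smallest possible p of 0.1. The median of all assays was -0.00 on the log2 scale, so the panel as a whole showed no shift beside which to read these falls. From the lowest of the 431 log2 fold changes, miR-517a ranked 29, miR-517c 37 and miR-517b 59. The family lay within the range of its cluster. Among the other 35 C19MC assays, 20 fell, 34 lay below 0 and the median was -1.23, with a range from -2.20 to 0.12, against a median of -1.20 over the 3 members. Within the 38 cluster assays miR-517a ranked 15, miR-517c 20 and miR-517b 31 from the lowest. The count of C19MC assays called lower, 22 with the family included, fell to 3 with the unequal-variance test of each assay alone, to 7 with RNU44 and RNU48 as reference, to 12 without NC replicate 3 and to 13 without siSOX2 replicate 1. Over all assays the calls lower went from 41 to 3, 13, 23 and 26 in the same order.

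The call of miR-517a was lost with the small nucleolar RNAs RNU44 and RNU48 as the reference (log2 fold change -1.03, adjusted p = 0.071, limma), under which the median of all assays moved to 0.43, and with an unequal-variance test of each assay alone (adjusted p = 0.056). In 2102Ep cells the raw Ct of RNU44 averaged 17.3 ± 0.230 before and 17.8 ± 0.173 after the knock-down (SD, n = 3), whereas U6 was at 14.9 in both. The control values of siSOX2 replicate 3 in these means were read 1 row earlier than placed, because its raw column is displaced. MiR-517c kept its call with each reference RNA and with each sample left out, and its largest adjusted p over all alternatives was 0.045.

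In NTera-2 cells all 3 members lay below 0 after SOX2 knock-down, as did 322 of the 451 assays tested, and no member passed the test. MiR-517c went from a mean dCt of 11.92 ± 0.131 to 12.45 ± 0.0777 (SD, n = 3), a log2 fold change of -0.53 (95% confidence interval -0.91 to -0.14), with an unadjusted p of 0.012 and an adjusted p of 0.110 (limma over 451 assays). Its arms did not overlap, as in 22.8% of all assays tested in the same direction. MiR-517a had a log2 fold change of -0.29 (-0.85 to 0.26, adjusted p = 0.588, limma) and miR-517b of -0.78 (-1.74 to 0.18, adjusted p = 0.335, limma), and the arms of both overlapped. Within samples of the same replicate number, the dCt rose by 2.04, 0.0755 and 0.232 for miR-517b and by 0.510, 0.329 and 0.745 for miR-517c, whereas for miR-517a it changed by 0.916, -0.380 and 0.342. With the replicate number as a block the adjusted p was 0.596, 0.317 and 0.186 for miR-517a, miR-517b and miR-517c (limma). The count of members called was 0 of 3 with limma, 1 of 3 at an unadjusted p under 0.05, and 0 of 3 with the unequal-variance test. Of all assays, limma called 3.77% lower, and 17.5% were lower at an unadjusted p under 0.05.

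These values stood against a shift of the whole panel, whose median log2 fold change in NTera-2 cells was -0.27. The median over the 3 members was -0.53 and over the other C19MC assays -0.46. From the lowest of the 451 log2 fold changes, miR-517a ranked 214, miR-517c 154 and miR-517b 99. With the global mean as reference, which removes a shift common to most assays, the log2 fold changes were -0.07 for miR-517a, -0.56 for miR-517b and -0.30 for miR-517c. With U6 alone, miR-517c passed the test (-0.71, adjusted p = 0.028, limma). In that setting, on card A alone, 39 of 256 assays were called lower and the median of all was -0.38. Of 38 C19MC assays, 16 were measured in 0 samples of NTera-2 cells and 22 could be tested, so the 3 members of the family belonged to the detectable part of the cluster there. Among the other 19 tested C19MC assays 1 fell, miR-522, named after its value was seen (log2 fold change -1.98, adjusted p = 3.4e-04, limma). That count with the family included was 3 without NC replicate 2, 2 without siSOX2 replicate 3 and 4 with U6. Over all assays the calls lower were then 14, 15 and 39, against 17 in the fit given first. Leaving out single samples moved miR-517a from -0.046 (without NC replicate 1) to -0.47 (without NC replicate 2) and miR-517b from -0.42 (without NC replicate 1) to -1.22 (without NC replicate 2), and neither was called in any of the 12 such fits.

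Whether the response differed between the lines was tested as the difference of both fold changes, NTera-2 minus 2102Ep. It was 1.09 for miR-517a (95% confidence interval 0.31 to 1.88, adjusted p = 0.096, limma over 384 assays), 0.67 for miR-517c (0.12 to 1.21, adjusted p = 0.139, limma) and 0.17 for miR-517b (-1.19 to 1.53, adjusted p = 0.912, limma). None of the 3 passed the threshold, which 4.43% of all assays did, and 2 of 3 were at an unadjusted p under 0.05, miR-517a and miR-517c, as were 22.1% of all assays. The call of a fall in 2102Ep and its absence in NTera-2 cells is therefore not by itself a difference between the lines. Without NTera-2 NC replicate 1 the difference of miR-517a passed (1.34, adjusted p = 0.044, limma). That of miR-517b changed sign with RNU44 and RNU48 (-0.29) and with U6 (-0.045).

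**Figure D2:**
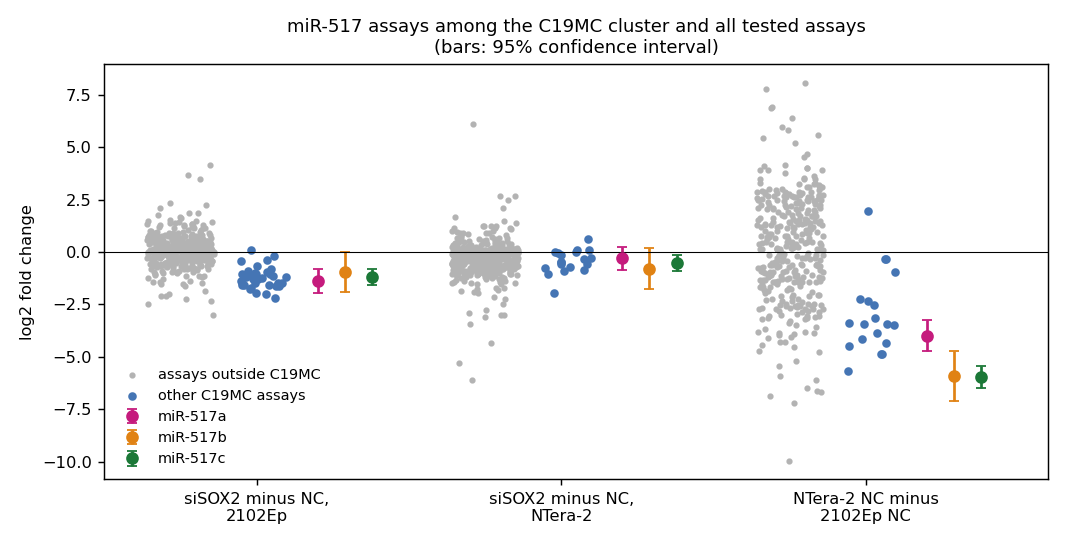
Log2 fold changes after SOX2 knock-down in each line (dCt scale) and of NTera-2 NC over 2102Ep NC (raw Ct set against the global mean), for assays outside C19MC (grey), other C19MC assays (blue) and the 3 miR-517 assays with 95% confidence intervals from limma. In 2102Ep cells the 3 members, at -1.38, -0.95 and -1.20, lie among the other cluster assays and below most of the panel, and between the lines miR-517b and miR-517c lie at the lower end of the cluster.

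The lines without SOX2 knock-down were compared on the NC samples alone, which had been transfected with the control siRNA. Raw Ct was centred, card by card, on the average of the assays measured in all 6 samples. The paper likewise set this comparison against the global mean, and the deposited dCt used different references on card B. The raw Ct of the reference RNAs also differed between the lines. Whether their amount per cell differed was not tested. All 3 members were lower in NTera-2 cells. Raw Ct rose from 20.4 ± 0.0658 to 24.5 ± 0.138 for miR-517a, from 22.2 ± 0.480 to 28.2 ± 0.548 for miR-517b and from 20.5 ± 0.00988 to 26.6 ± 0.314 for miR-517c (SD, n = 3). The log2 fold changes were -3.99 for miR-517a (95% confidence interval -4.75 to -3.23, adjusted p = 7.7e-05, limma over 384 assays), -5.90 for miR-517b (-7.09 to -4.71, adjusted p = 8.0e-05, limma) and -5.96 for miR-517c (-6.47 to -5.45, adjusted p = 7.8e-06, limma). In linear terms NTera-2 cells had 6.30%, 1.68% and 1.61% of the 2102Ep level.

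Of all assays 33.6% were lower in NTera-2 cells by the same test, and 3 of 3 members were. The NC samples of both lines did not overlap for any member, as for 36.7% of all assays in the same direction. Among the 22 C19MC assays tested, miR-517c had the lowest log2 fold change, miR-517b the next and miR-517a ranked 9. Of the other 19, 15 were lower in NTera-2 cells and miR-515-3p, named after its value was seen, was higher (1.95), and the median of the 19 was -3.43. The direction of miR-515-3p turned with the reference, to -1.71 on the deposited dCt and -2.26 with U6. On the deposited dCt scale the gap was larger, at -7.65, -9.56 and -9.62 for miR-517a, miR-517b and miR-517c. U6 had a raw Ct of 14.9 in 2102Ep NC and 10.8 in NTera-2 NC, and miR-16 of 21.6 and 18.6, so that the reference contributed to that gap, whereas the mean raw Ct over 224 assays of card A was 24.2 and 24.3. With RNU44 and RNU48 the values were -5.53, -7.44 and -7.50. The calls of all 3 held with each of these references. The distances between the members are the same under any reference, since all 3 share card A.

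Other miRNAs that set undifferentiated from differentiated cells also moved between the lines. Among the 8 stem cell markers, miR-371-3p and miR-372 went from raw Ct 19.1 and 16.7 in 2102Ep NC to 25.2 and 22.9 in NTera-2 NC, while the other 6 had lower Ct in NTera-2 cells. Of 10 markers of other cell types, 7 were in the table (miR-124 under its older mouse name, mmu-miR-124a), at raw Ct between 22.8 and 33.0 in 2102Ep NC and between 23.1 and 29.0 in NTera-2 NC where measured. Let-7a was measured in no sample, miR-142-3p in no 2102Ep sample and let-7c in no NTera-2 sample, while let-7b went from raw Ct 31.4 to 23.4 and the neural miR-124 from 24.4 to 25.9. The part of these differences in the level of the family was not tested.

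The size of the gap between the lines can be set against that of the knock-down, on the dCt scale, which includes the difference in miR-16 and U6, and on raw Ct. For miR-517a, the highest of the NTera-2 NC samples in RNA still lay 5.70 cycles of dCt beyond the lowest of the 2102Ep siSOX2 samples, for miR-517b 7.67 cycles and for miR-517c 8.15 cycles. In raw Ct these distances were 2.37, 4.46 and 4.46 cycles. After SOX2 knock-down the mean dCt of the lines remained 6.56 cycles apart for miR-517a, 9.39 for miR-517b and 8.95 for miR-517c, and the mean raw Ct 3.04, 5.88 and 5.44 cycles. On both scales every 2102Ep siSOX2 sample held more of each member than every NTera-2 NC sample.

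**Figure D3:**
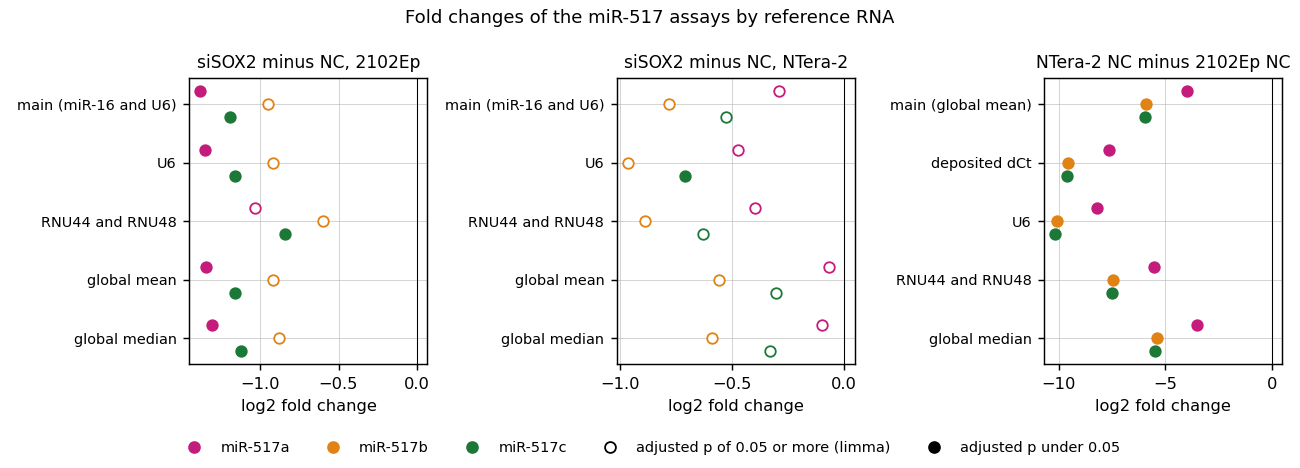
Log2 fold changes of the 3 miR-517 assays by the reference used, for siSOX2 over NC in either line and for NTera-2 NC over 2102Ep NC. Filled points passed an adjusted p of 0.05 in limma and open points did not. MiR-517c is filled with each reference in 2102Ep cells, miR-517a is open with RNU44 and RNU48, and in NTera-2 cells miR-517c is filled with U6 only.

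The 3 assays were then compared with each other within samples. As all are on card A, the difference of their raw Ct in 1 sample does not depend on the reference. Assays amplify with different efficiency, so such a difference is no ratio of RNA amounts. A constant offset between 2 assays cancels in its change between groups, but unequal efficiency does not where the level moves far. Between the NC groups of the lines raw Ct moved by 4.11, 6.02 and 6.08 cycles for miR-517a, miR-517b and miR-517c. Efficiencies were not measured, so changes between the lines are given in cycles only. The 3 pairs were tested with exact two-sided permutation tests and adjusted over the 3 pairs.

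MiR-517c and miR-517a had nearly the same Ct in 2102Ep cells and parted in NTera-2 cells. MiR-517c minus miR-517a was 0.12, 0.18 and 0.25 cycles in 2102Ep NC and 0.05, -0.07 and -0.01 cycles in 2102Ep siSOX2. In NTera-2 cells it was 2.66, 1.91 and 1.88 cycles in NC and 2.26, 2.62 and 2.28 cycles in siSOX2 samples. No NTera-2 sample overlapped with any 2102Ep sample.

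MiR-517b and miR-517a, whose mature sequences in RefSeq are identical, parted in the same way. MiR-517b minus miR-517a was 2.18, 1.32 and 2.00 cycles in 2102Ep NC and 1.55, 1.29 and 1.38 cycles in 2102Ep siSOX2. It was 3.52, 4.26 and 3.45 cycles in NTera-2 NC and 4.64, 4.72 and 3.34 cycles in NTera-2 siSOX2. Again the lines did not overlap. Over both treatments, with labels exchanged within a treatment, the difference of miR-517a minus miR-517b changed by -2.37 cycles from 2102Ep to NTera-2 cells (exact permutation p = 0.005, the smallest that 400 relabellings can give, adjusted p = 0.0075) and that of miR-517a minus miR-517c by -2.18 cycles (exact permutation p = 0.005, adjusted p = 0.0075). These relabellings take same-numbered NC and siSOX2 samples as independent. With each such pair as 1 unit, the permutation test could give no p below 0.1.

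No change was detected in the distance between miR-517b and miR-517c. MiR-517b minus miR-517c averaged 1.65 and 1.41 cycles in NC and siSOX2 samples of 2102Ep cells and 1.59 and 1.85 cycles in those of NTera-2 cells, with single samples between 0.85 and 2.39. The change between the lines was 0.19 cycles (exact permutation p = 0.565), and -0.0014 to 0.38 cycles with any 1 sample left out. In cycles, the gap between the lines was thus smaller for miR-517a than for either of the other members. The part of assay efficiency in this was not tested. A difference in gap between miR-517b and miR-517c was not detectable with these samples.

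**Figure D4:**
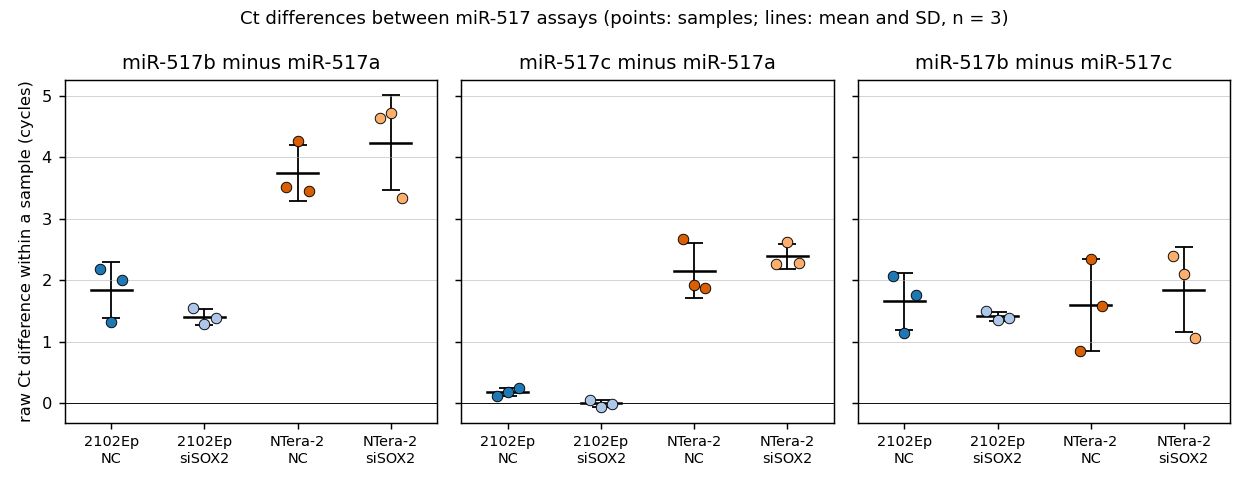
Difference in raw Ct (cycles) between miR-517 assays within each sample, for 3 pairs and 4 groups of 3 samples (points are samples, long lines means, bars SD). MiR-517b and miR-517c both lie further behind miR-517a in NTera-2 than in 2102Ep samples, by 2.37 and 2.18 cycles, while miR-517b minus miR-517c ranges over similar values in both lines.

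The effect of SOX2 knock-down on these distances was tested in the same way, and no change passed the test. Over both lines, with labels exchanged within a line, the change was -0.03 cycles for miR-517a minus miR-517b (exact permutation p = 0.97), -0.02 for miR-517a minus miR-517c (exact permutation p = 0.865) and 0.01 for miR-517b minus miR-517c (exact permutation p = 0.99). These small pooled values join changes of opposite sign in both lines. For miR-517a minus miR-517b the change was 0.43 cycles in 2102Ep and -0.49 cycles in NTera-2 cells (exact permutation p = 0.3 and 0.4), and for miR-517a minus miR-517c 0.19 and -0.24 cycles (exact permutation p = 0.1 and 0.6). Within 1 line the test cannot give a p below 0.1, so these values do not show that the distances stayed the same. For miR-517c minus miR-517a in 2102Ep cells the arms did not overlap, with NC between 0.12 and 0.25 and siSOX2 between -0.07 and 0.05 cycles. With single samples left out, miR-517a minus miR-517b ranged from 0.26 (without NC replicate 1) to 0.69 (without NC replicate 2) in 2102Ep cells and from -0.94 (without siSOX2 replicate 3) to -0.25 (without siSOX2 replicate 2) in NTera-2 cells. MiR-517a minus miR-517c ranged there from -0.49 (without NC replicate 1) to -0.098 (without NC replicate 3).

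The assays most like the family in pattern were found by the root mean square difference from the mean profile of the 3 members over the 12 samples, each profile centred on its own mean, among 221 other card A assays measured in all samples. The nearest were miR-519a (0.324 on the log2 scale), miR-512-3p (0.339), miR-519d (0.490), miR-518f (0.532) and miR-200c (0.564), where the median over the 221 assays was 2.68. The first 4 belong to C19MC, which supplied 14 of the 221. The members themselves lay 0.384 (miR-517c), 0.526 (miR-517b) and 0.782 (miR-517a) from their own mean, so that miR-519a and miR-512-3p were nearer to it than any member. These are descriptions over points that share libraries and reference, and the gap between the lines outweighs the knock-down in them.

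The mean dCt of miR-519a was 2.37 (NC) and 3.50 (siSOX2) in 2102Ep and 11.68 and 12.18 in NTera-2 cells. That of miR-512-3p was 0.89 and 2.37 in 2102Ep and 9.43 and 10.15 in NTera-2 cells. After SOX2 knock-down in 2102Ep cells the log2 fold changes were -1.13 for miR-519a (adjusted p = 0.0048, limma), -1.48 for miR-512-3p (0.0032), -1.18 for miR-519d (0.019) and -0.90 for miR-518f (0.027), all called lower. MiR-200c, a miRNA of epithelial cells encoded outside the cluster, shared the gap between the lines but was not called in 2102Ep cells (-0.51, adjusted p = 0.262, limma). Its arms did not overlap there, with siSOX2 lower, as in 18.1% of all assays. In NTera-2 cells none of the 5 was called with limma. Their log2 fold changes there were -0.49, -0.72, -0.01, -0.03 and -0.85 in the order of likeness.

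**Figure D5:**
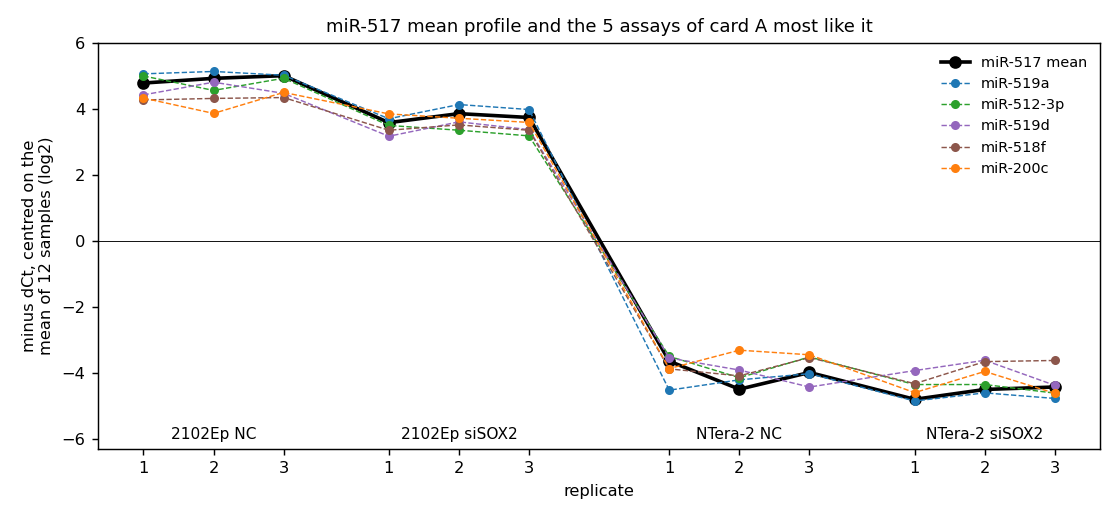
Minus dCt centred on the mean of the 12 samples (log2 scale) for the mean of the 3 miR-517 assays (thick black line) and the 5 card A assays nearest to it, by group and replicate. The mean of the family and the 4 C19MC assays step down from NC to siSOX2 in 2102Ep cells. MiR-200c also steps down there, by less (-0.51) and without overlap of its arms. All profiles drop between the lines.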

How the data were processed

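TaqMan array cards A and B were run on 12 samples. Per the labels and the paper's methods, RNA was reverse transcribed and pre-amplified with Megaplex primer pools. The authors deposited raw Ct and dCt, both log2-scale values, from DataAssist, and a table of fold changes (a ratio) with p-values of their own comparison, which was not used. On card A, where the family lies, the dCt equalled raw Ct minus the mean of miR-16 and U6 within 0.02 cycles. For 2102Ep siSOX2 replicate 3, the raw values from row 106 on stood 1 measured row out of place (0.592% matched the dCt as placed, 99.7% of 339 after moving), so raw Ct was rebuilt there from the dCt. Its control rows, RNU44 and RNU48 among them, have no dCt and were read 1 row earlier, where U6 and miR-16 on card A gave the constant of the dCt.

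Every assay with 2 or more of 3 samples measured per arm entered a limma fit (version 3.58.1, R 4.3.3) of minus dCt, with lmFit and eBayes, 4 group means and all 12 samples, and Benjamini-Hochberg adjustment over all assays of a comparison, with calls at an adjusted p under 0.05. The undifferentiated lines were compared on 6 NC samples after global mean scaling per card. C19MC was taken as miR-498, miR-512, miR-515 to miR-527, miR-1283 and miR-1323. Named assays were the members, the 5 nearest in pattern, the reference RNAs and the cell type markers. The members and lists were chosen with earlier results of these data known. The fit was tested on simulated data. Sequences and positions came from RefSeq tables. Alternatives were other references, filters, tests, a replicate block and each sample left out.

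Replicates held 0 identical pairs, and their dCt correlated between 0.940 and 0.988. Whether replicates came from separate cultures is not described beyond the label, so p-values measure the spread between these samples. Residual dCt was correlated between the NC and siSOX2 samples of a line. For NTera-2, equal replicate numbers gave 0.118, 0.265 and 0.159, and unequal numbers at most 0.0538. For 2102Ep, equal numbers gave 0.157, 0.168 and 0.0635, and unequal numbers at most 0.0378. Samples of equal number were thus more alike than others whichever the line, so the numbers may pair samples in either. The fits and permutations given first carry no block. The block is an alternative for the fits, and no blocked permutation was run. PCR after pre-amplification gives no molecule counts, so the number of samples limits the precision.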

Additional observations from a re-analysis of the deposited data

Results flagged for a closer look

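The gap in cycles between NTera-2 and 2102Ep cells differed between members of the family by the exact permutation test of the difference itself. That test takes same-numbered NC and siSOX2 samples as independent, and with each pair as 1 unit it could give no p below 0.1. The raw Ct of miR-517a minus that of miR-517b changed by -2.37 cycles from 2102Ep to NTera-2 cells, with every NTera-2 sample below every 2102Ep sample, although RefSeq gives both the same mature sequence. The raw Ct of miR-517a minus that of miR-517c changed by -2.18 cycles, also without overlap, although they differ by the single substitution C12U. In the NC samples alone the changes were -1.91 and -1.97 cycles, and in the siSOX2 samples alone -2.83 and -2.39 cycles (exact permutation p = 0.1 for each, the smallest possible, adjusted p = 0.15). With any 1 sample left out they stayed between -2.59 and -2.24 cycles and between -2.25 and -2.05 cycles over both treatments. Line, siRNA dose and transfection reagent cannot be told apart here. Neither what the assays detect nor how efficiently they amplify was tested.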

How the results depend on the processing

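Log2 fold changes of the members in 2102Ep cells kept their sign under all 23 alternatives, at -1.46 to -1.03 for miR-517a, -1.14 to -0.60 for miR-517b and -1.27 to -0.84 for miR-517c. Only the other references and left-out 2102Ep samples could move these values. The other tests, filters, the block and left-out NTera-2 samples could change the p-values alone. The call of miR-517a was lost with RNU44 and RNU48 (-1.03, adjusted p = 0.071, limma) and with the unequal-variance test of each assay alone (-1.38, adjusted p = 0.056). MiR-517c gained a call in NTera-2 cells with U6 (-0.71), where 39 of 256 assays were called lower. The difference between the lines passed for miR-517a without NTera-2 NC replicate 1 (range over left-out samples 0.91 to 1.34). That of miR-517b reversed with U6 (-0.045) and with RNU44 and RNU48 (-0.29), and ranged from -0.27 to 0.53 over left-out samples, below 0 without 2102Ep NC replicate 2, NTera-2 NC replicate 2 or NTera-2 siSOX2 replicate 3. The cause was not tested.

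C19MC assays called lower in 2102Ep cells went from 22 to 7 with RNU44 and RNU48, 13 with complete assays only, where fewer assays are tested, 3 with the unequal-variance test, and 12 to 25 over left-out samples. Over all assays the calls lower went from 41 to 13, 29 and 3 in these settings and 23 to 45 over left-out samples. In NTera-2 cells the C19MC count went from 1 to 4 with U6 and 1 to 3 over left-out samples. Over all assays the calls lower there went from 17 to 39 with U6. For the difference between the lines the count of 0 lower became 1 with U6 or with RNU44 and RNU48 and 0 to 1 over left-out samples. Of the 22 C19MC assays tested, 10 were at an unadjusted p under 0.05 in either direction (limma), where 22.1% of all assays were. Over all assays the calls lower went from 10 to 16 with U6 and 32 with RNU44 and RNU48. The count of 0 C19MC assays higher became 1 with complete assays only, 8 with unmeasured values set to Ct 40 and 0 to 2 over left-out samples. Over all assays the calls higher went from 7 to 9 with complete assays only and 17 with unmeasured values set to Ct 40. The 1 C19MC assay higher in undifferentiated NTera-2 cells became 0 with the deposited dCt, U6, RNU44 and RNU48 or the unequal-variance test.

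Pair differences kept their side of the threshold, and those near 0 changed sign with left-out samples. These ranged from -0.25 to 0.10, -0.15 to 0.045 and -0.18 to 0.20 cycles for the knock-down over both lines (miR-517a minus miR-517b, miR-517a minus miR-517c, miR-517b minus miR-517c). For miR-517b minus miR-517c they ranged from -0.11 to 0.65 for the knock-down in NTera-2 cells, -0.44 to 0.31 between the NC groups and -0.0014 to 0.38 between the lines over both treatments.

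With the replicate block no call of a member changed. The adjusted p (limma) was then 0.036, 0.206 and 0.023 for miR-517a, miR-517b and miR-517c in 2102Ep cells, 0.596, 0.317 and 0.186 in NTera-2 cells, 0.192, 0.875 and 0.239 for the difference between the lines, and 0.0016, 0.0019 and 0.0010 for the undifferentiated lines. C19MC calls under the block were 15 lower in 2102Ep and 1 in NTera-2 cells, of 30 and 4 calls lower over all assays.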
